A study of Bos grunniens and Bos taurus with 11 samples.

Results

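The genes described here are 54 annotated genes whose expression was higher in the lung of every yak than in the lung of both cattle. Annotated genes are those listed under a numeric identifier, and 8451 of the 17267 genes listed belong to this class. The other 8816 are genes that the authors assembled from the reads and numbered as new. Expression is given as FPKM, the fragments counted per kilobase of gene, scaled to the total counted in the library. A gene was taken when the lowest FPKM among the 9 yaks plus 1 reached at least 1.5 times the highest FPKM of the 2 cattle plus 1. This ratio is called the margin below. Genes with a mean FPKM of 500 or more, or with fewer than 2 libraries at an FPKM of 1 or above, could not enter, which left 6903 annotated genes. The 54 genes are 0.782% of these. The genes were thus chosen by the FPKM of yaks and cattle itself, and the difference between the species is therefore given below as a description and not as a test.

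Lung tissue was taken from healthy adult male animals of breeding age, and 1 library was sequenced per animal. The controls (CON) were 2 indigenous Zaosheng cattle living at 1500 m. The yaks lived at 3400 m (T1, Maqu), 4200 m (T2) and 5000 m (T3, Anduo), with 3 animals at each altitude, and the T2 animals had 3 origins (replicate 1 Linzhou, replicate 2 Bange, replicate 3 Dangxiong). No lowland yak and no highland cattle were sampled, so that species, altitude and place cannot be told apart in the comparison with CON, and reads of both species were mapped to a yak assembly.

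Low oxygen makes the small arteries of the lung constrict, and in cattle taken to altitude this can lead to pulmonary hypertension and failure of the right heart. Yaks live on the plateau with thin-walled pulmonary arteries and a weak constrictor response. In most mammalian cells, a lack of oxygen stabilises the hypoxia-inducible factors, which switch on genes for red cell formation, blood vessel growth and glycolysis. The numeric identifiers come without gene names, and 0 of 8451 matched the 40772 genes of the reference table. None of the lists of hypoxia, vascular tone, haemoglobin, surfactant and immune genes or of lung cell type markers could therefore be looked up. The tissue label could not be checked against markers for the same reason, and genes are reported by identifier. Since whole lung was sequenced, fewer cells of a type and less RNA per cell cannot be told apart.

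The libraries held 28138973 to 54515645 reads on genes (median 38912475). T3 replicates 1 and 2 stood apart from the other libraries, with 2816 and 3747 genes without a read against 1821 to 2342 elsewhere, and with 39.7% and 40.7% of reads on their 10 most abundant genes. Their median-ratio size factors were 0.736 and 0.689, against 0.971 to 1.21 in the other libraries. T2 replicate 1 had the lowest share of reads on annotated genes, at 69.1%, while T1 replicate 3 had the highest at 88.3%. No 2 libraries held identical values.

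The margins were mostly small. The median margin was 1.78, 36 genes lay between 1.5 and 2, 18 reached 2, 6 reached 3 and 3 reached 4. A single gene, 102277106, had a margin of 31.5, and the next largest was 4.38. Just inside the limit, gene 102272952 had a margin of 1.502, from 2.69 FPKM in T3 replicate 3 and 1.46 FPKM in CON replicate 1. Just outside it, gene 102266259 had a margin of 1.496, from 3.36 FPKM in T3 replicate 3 and 1.91 FPKM in CON replicate 2. The next genes on either side, 102284688 and 102267395, had margins of 1.516 and 1.483.

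**Figure D1:**
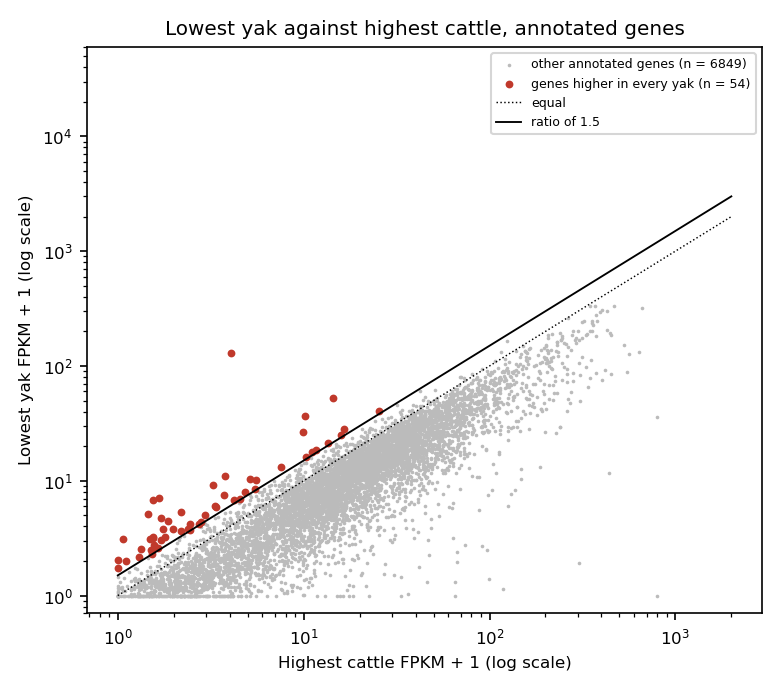
Highest cattle FPKM plus 1 (horizontal) against lowest yak FPKM plus 1 (vertical), both on log scales, for the 6903 annotated genes that could enter, with the 54 chosen genes in red. The solid line marks the ratio of 1.5 and the dotted line equal values; most red points lie close above the solid line, and the point far above it is gene 102277106 with a margin of 31.5.

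How often the rule is met depends on which 2 libraries stand in the place of the cattle. The same rule was applied to each of the 54 other pairs of libraries, asking for annotated genes that were lower in both of the pair than in all 9 others. These counts ranged from 0 to 323 with a median of 1.0, and 20 pairs gave 0 genes. Among the 18 pairs of 1 cattle and 1 yak the highest count was 1. Among the 27 pairs of yaks from 2 altitudes it was 16, for T2 replicate 1 with T3 replicate 3. The 9 pairs of yaks from 1 altitude had a median of 2.0. In 1 pair, T3 replicates 1 and 2, the count of 323 exceeded that of the cattle. The rule bars those 323 genes from being among the 54, since they were lower in these yaks than in the cattle. The next pair, T3 replicates 2 and 3, gave 26.

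The large count of the T3 pair was found on the FPKM scale alone among the 3 scales tried. After median-ratio scaling, which sets the median gene equal between libraries, the cattle gave 56 genes and T3 replicates 1 and 2 gave 23, the highest of the other pairs. After quantile normalization the counts were 58 for the cattle and 30 for T3 replicates 1 and 2, again the highest of the others. On neither scale did another pair reach the count of the cattle. In the opposite direction, 64 annotated genes were higher in both cattle than in every yak by the same ratio, which is 0.927% of the genes that could enter. The next pair in this direction, CON replicate 1 with T2 replicate 1, gave 54, and after median-ratio scaling 2 other pairs reached the count of the cattle (65), with 71 for T3 replicates 1 and 2. New genes met the rule more often in proportion, with 108 of 6662 (1.62%) higher in every yak and 153 (2.30%) higher in both cattle. Without any margin, 416 annotated genes (6.03%) were higher in every yak than in both cattle.

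**Figure D2:**
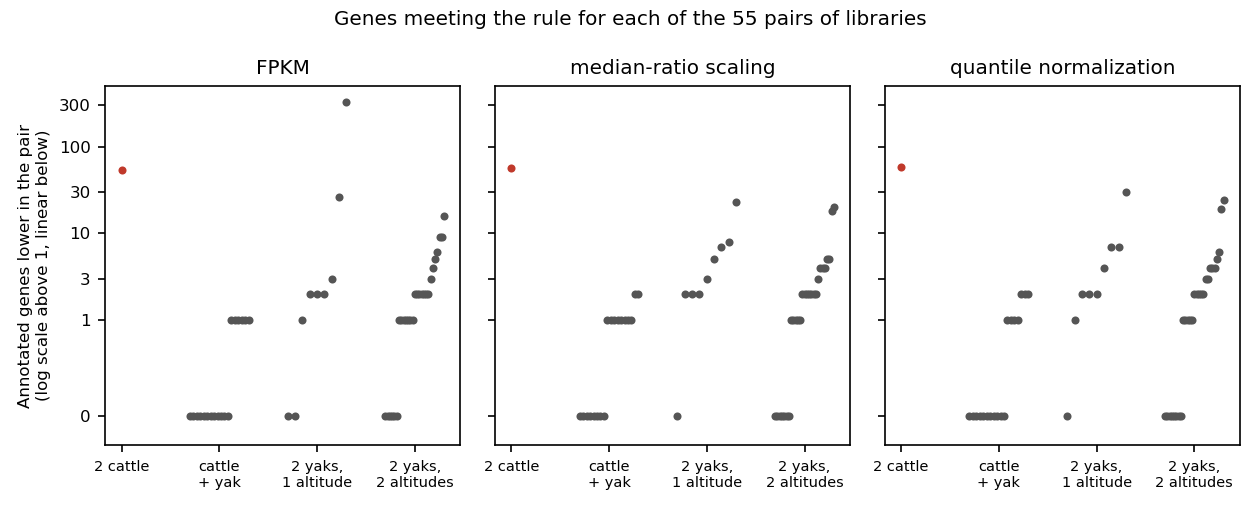
Number of annotated genes meeting the rule (vertical, log scale above 1 and linear below) when each of the 55 pairs of libraries takes the place of the cattle, 1 point per pair, on 3 scales of the values. The cattle (red) gave 54, 56 and 58 genes, and T3 replicates 1 and 2 were above them on the FPKM scale (323) and below them on the other scales (23 and 30).

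Which genes were chosen also depended in part on the scale. Of the 54 genes, 42 met the rule after median-ratio scaling, 41 after quantile normalization and 39 on both. All of them met it when any library was left out, since a rule over fewer libraries is easier to meet. The total then rose from 54 to 105 without CON replicate 1 and to 83 without CON replicate 2. It was between 54 and 72 with any 1 yak left out, and 99 without T3 replicates 1 and 2 together. Of the 54, 28 met the rule under every setting that kept the ratio of 1.5.

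Expression of the 54 genes in the yaks covered a wide range. The mean FPKM over the 9 yaks ran from 1.95 to 421 with a median of 9.79. It was under 5 for 13 genes, from 5 to 20 for 26 and at least 20 for 15. In the cattle the median of the mean FPKM was 1.29 and the highest 15.3. Behind these values stood 0 to 1557 reads per gene in a cattle library, with a median of 79.5, and 27 to 60603 in a yak library, with a median of 686.0.

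The mean yak FPKM was 2.15 to 184 times the mean cattle FPKM in the 52 genes with reads in at least 1 of the cattle, with a median of 6.89. It was at least 5 times higher in 34 genes and at least 10 times higher in 17. On the log2(FPKM + 1) scale, the mean difference of yaks minus cattle was 1.01 to 6.91 with a median of 1.80, beside a median of 0.03 over all annotated genes that could enter. The 2 cattle lay within 0.5 log2 units of each other in 45 of the 54 genes. The median difference between them was 0.18 log2 units, and 0.17 over all annotated genes that could enter.

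In 1 gene the cattle lay more than 1 log2 unit apart. Gene 102271248, named because of this after its values were seen, had 1.95 FPKM in CON replicate 1 and 24.3 FPKM in CON replicate 2. Its FPKM was 43.6, 104 and 89.7 in T1, 63.6, 55.1 and 106 in T2, and 39.6, 53.0 and 72.2 in T3. The second of the cattle was thus closer to the lowest yak than to the other of the cattle.

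**Figure D3:**
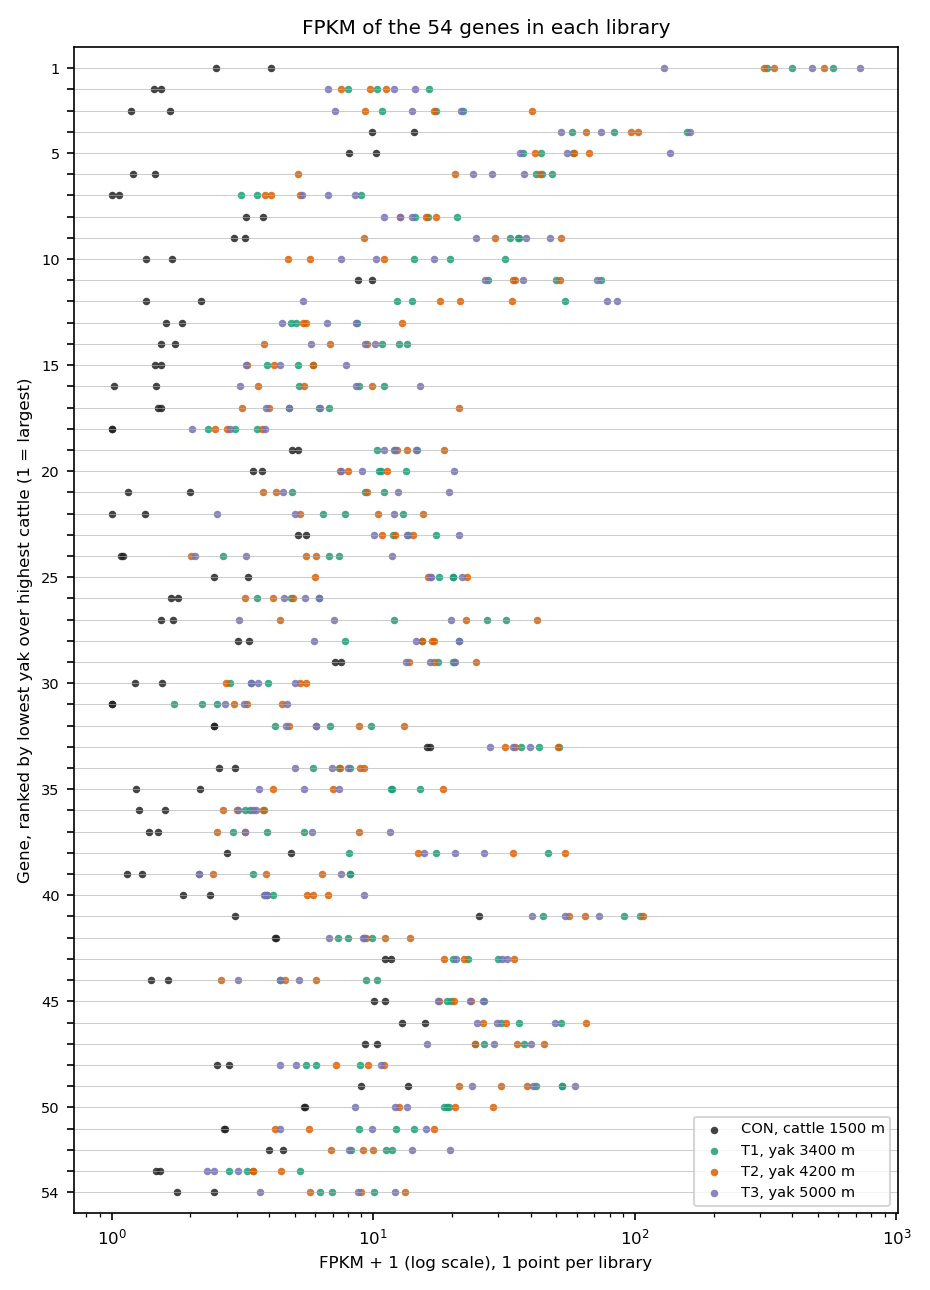
FPKM plus 1 (horizontal, log scale) of each of the 54 genes in the 11 libraries, 1 point per library coloured by group, with genes ordered from the largest margin at the top to the smallest at the bottom. Every yak point lies to the right of both black cattle points, since the rule asks for this. Without the added 1, the highest yak FPKM of a gene was 1.52 to 19.9 times the lowest.

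The genes fell into 3 classes by their level in cattle. In 23 genes both cattle were under 1 FPKM. Their mean yak FPKM was 1.95 to 31.6 with a median of 4.56, and the yak to cattle fold of the 21 with cattle reads was 4.77 to 139 with a median of 13.6. The highest of these folds, of gene 102284359, rested on 0 and 4 cattle reads. In 20 genes the higher of the cattle had 1 to 5 FPKM. Their mean yak FPKM was 4.23 to 421 with a median of 11.1, and their median fold was 4.82. In the other 11 genes the higher of the cattle had at least 5 FPKM, the mean yak FPKM was 17.2 to 93.6 with a median of 37.9, and the fold was 2.15 to 8.41 with a median of 3.4. Genes that were low in cattle varied more between yaks. The ratio of the highest to the lowest yak had a median of 5.79 in the first class, 3.74 in the second and 2.69 in the last.

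Both cattle libraries held 0 reads for 2 genes, 102284479 and 102268866, and 4 genes had 0 reads in at least 1 of them. Gene 102284479, named for this after its values were seen, had 2.58, 1.95 and 1.33 FPKM in T1, 1.49, 1.77 and 2.74 FPKM in T2, and 1.83, 1.03 and 2.86 FPKM in T3. Its mean in yaks was 1.95 ± 0.647 FPKM (SD, n = 9), and the 3 altitudes overlapped. Taking 3 reads in each cattle library as the limit that 0 reads allow, which is 0.0841 FPKM for this gene, its mean in yaks was at least 23.2-fold higher. Such limits cover counting error only.

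The gene with the largest margin was also the most abundant of the 54 in yaks. Gene 102277106, which is 1531 bases long, had 1.51 and 3.08 FPKM in the cattle, from 90 and 178 reads. In the yaks it had 573, 318 and 396 FPKM in T1, 338, 310.1 and 529 FPKM in T2, and 128, 473 and 726 FPKM in T3. The lowest and the highest yak were thus both at 5000 m, and even the lowest was far above the cattle. The mean was 421 ± 176 FPKM (SD, n = 9) in yaks and 2.29 ± 1.11 FPKM (SD, n = 2) in cattle, a ratio of 184 and a log2 difference of 6.91. Ranked among annotated genes within each library, it stood at percentile 24.9 and 31.4 in the cattle and between 96.9 and 99.7 in the yaks. A rank within a library does not change when the whole library is rescaled.

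The second largest margin belonged to gene 102287495, which at 8027 bases was among the longer ones. It had 0.448 and 0.541 FPKM in the cattle, 15.3, 7.02 and 9.29 in T1, 8.72, 6.55 and 10.2 in T2, and 11, 5.74 and 13.4 in T3. Its yak values stayed within 2.67-fold of each other and the altitudes overlapped. The mean was 9.69 ± 3.18 FPKM (SD, n = 9) in yaks and 0.495 ± 0.0655 FPKM (SD, n = 2) in cattle, a ratio of 19.6. Its rank percentile was 17.9 and 18.8 in the cattle and 39.7 to 57.9 in the yaks.

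The second most abundant gene in yaks was 102284826, of 1195 bases, and it was also well expressed in cattle. It had 8.92 and 13.3 FPKM in the cattle, 82.3, 157 and 56.6 in T1, 64.3, 95.6 and 102 in T2, and 161, 72.9 and 51.1 in T3. The mean was 93.6 ± 40.7 FPKM (SD, n = 9) in yaks and 11.1 ± 3.12 FPKM (SD, n = 2) in cattle, a ratio of 8.41. Its rank percentile was 46.7 and 57.2 in the cattle and 89.3 to 97.6 in the yaks. As with gene 102277106, its highest and lowest yak values were both found in T3.

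By this rank within the library, all 54 genes stood higher in every yak than in both cattle. The ranks order the same FPKM values by which the genes were chosen, so that this is a description and not a test. The gap between the lowest yak and the highest cattle was 2.83 to 65.5 percentiles with a median of 9.72. The median rank percentile of the 54 genes was 24.7 and 24.2 in the cattle, and in the yaks it ran from 37.6 in T2 replicate 1 to 58.3 in T3 replicate 1. Summed over the 54 genes, FPKM was 157 and 183 in the cattle, 1602, 1276 and 1246 in T1, 1088, 1182 and 1519 in T2, and 1272, 1297 and 1413 in T3. Leaving out gene 102277106, these sums were 155 and 180.1 in the cattle and 687 to 1145 in the yaks. The 54 genes took 0.0306% and 0.0332% of the reads on genes in the cattle and 0.190% to 0.265% in the yaks. T3 replicates 1 and 2 had the highest median rank percentiles, at 58.3 and 52.9 against 37.6 to 50.3 in the other yaks. The sum without gene 102277106 was highest in T3 replicate 1, at 1145, while the full sums and the shares of reads of both libraries lay within the range of the other yaks.

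The 54 genes were shorter than other annotated genes, with a median of 1507 bases (range 460 to 9005) against 2203 bases over those that could enter, and 41 of them (75.9%) were below that median. Whether the length took part in the choice was not tested.

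For the lowest yak, which decides whether a gene enters, T2 replicate 1 and T3 replicate 3 each held 13 of the 54 genes, T3 replicate 2 held 11, T3 replicate 1 held 7, T2 replicate 3 held 3, and the 4 other libraries held 1 or 2 each. Over all annotated genes that could enter, the shares were 33.0% for T3 replicate 2, 20.5% for T3 replicate 1, 16.2% for T2 replicate 1 and 15.7% for T3 replicate 3. The highest yak value was found in T1 replicate 1 for 10 of the 54 genes, in T2 replicate 3 for 9, in T2 replicate 2 and T3 replicate 1 for 8 each, in T2 replicate 1 for 6, in T3 replicate 3 for 5, in T3 replicate 2 for 4, and in T1 replicates 2 and 3 for 3 and 1. Over all annotated genes that could enter, the largest shares were 24.5% for T1 replicate 1, 23.1% for T2 replicate 1 and 13.9% for T1 replicate 3. No single yak thus held most of the highest or lowest values.

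In limma fits of log2(FPKM + 1), all 13636 genes that reached an FPKM of 1 in 2 or more libraries were tested. A gene was called when it changed at least 2-fold and its adjusted p after Benjamini-Hochberg was under 0.05. As the rule used these contrasts, the counts of called genes describe the choice. Of the 54 genes, 33 were called higher in T1 than in CON beside 1.5% of all genes. In T2 30 were called beside 0.968%, and in T3 26 beside 0.719%. By an unadjusted p under 0.05 in place of the adjusted one, 52, 53 and 52 were called beside 6.23%, 4.39% and 2.77% of all genes. The median log2 fold change of the 54 was 2.02, 1.81 and 1.75 in T1, T2 and T3 against CON, and that of all genes 0.17, 0.10 and -0.22. The counts leaned on having both cattle. Without CON replicate 1 they were 4, 1 and 1 for T1, T2 and T3, and without CON replicate 2 they were 5, 2 and 2, with the remaining animal assumed to vary like the yaks. Calls fell for all genes as well, to between 0.104% and 0.231% of all genes in either direction in these 6 comparisons. In T1 the count was 13 without replicate 1 or without replicate 2. In T2 it was 14 without replicate 2 and 10 without replicate 3, and in T3 it was 15 without replicate 1 or without replicate 2, beside 1.02% to 1.78% of all genes in either direction. The order of the 3 counts also depended on the scale, since after median-ratio scaling they were 20, 23 and 36 in T1, T2 and T3, and after quantile normalization 23, 26 and 32. The shares of all genes called in either direction were then 2.39%, 2.27% and 3.19%, and 3.07%, 2.63% and 3.15%. They were highest in T3 on both scales. In the main fit, 1.29%, 1.21% and 2.08% of all genes were called lower in T1, T2 and T3, besides those called higher. Shares in either direction include such lower calls, and do not show whether the order of higher calls turned over all genes. Without T3 replicate 3 the count in T3 was 37, beside 8.58% of all genes.

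The comparison of altitudes among yaks was not used to choose the genes. The rule did, however, set a floor under every yak value, so that a gene which fell to near the level of the cattle at any altitude could not enter. At a fold change of at least 2 and an adjusted p under 0.05 in limma, none of the 54 genes changed between T1 and T2, T1 and T3 or T2 and T3, beside 0% of all 13636 genes in each direction. The smallest Benjamini-Hochberg adjusted p among the 54 was 0.503, 0.210 and 0.271 in these comparisons, against 0.135, 0.0630 and 0.223 over all genes. By the unadjusted p instead, again with a 2-fold change, 2 genes had lower values in T2 than in T1 (beside 1.86% of all genes), 1 was lower in T3 than in T1 (5.45%) and none was lower in T3 than in T2 (5.0%). None was higher by this measure, beside 0.755%, 0.235% and 0.418% of all genes. Limma's voom on the recovered reads also called 0 of the 54 genes in each of the 3 comparisons, beside 0% of all genes.

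Regardless of the size of the change, 5, 4 and 1 of the 54 genes had an unadjusted p under 0.05 in the T1 with T2, T1 with T3 and T2 with T3 comparisons. These are 9.26%, 7.41% and 1.85% of the 54, while the shares over all genes were 6.89%, 18.7% and 14.8%. The median log2 fold change of the 54 genes was -0.09 from T1 to T2, -0.11 from T1 to T3 and -0.05 from T2 to T3. Over all genes it was -0.07, -0.37 and -0.30. After median-ratio scaling, the medians of the 54 were 0.01, 0.35 and 0.30, beside 0.01, 0.00 and -0.02 over all genes, so that the direction of the medians towards T3 turned with the scale. Relative to all genes, the medians of the 54 towards T3 were higher on both scales, and on the FPKM scale by less without T3 replicate 1, one of the libraries that stood apart. Without it the medians were -0.21 for the 54 and -0.33 for all genes from T1 to T3, and -0.20 and -0.25 from T2 to T3. Without T3 replicate 3 they lay further apart, at -0.08 and -0.52 from T1 to T3 and at 0.00 and -0.46 from T2 to T3. The part of the floor set by the rule in this was not tested.

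**Figure D4:**
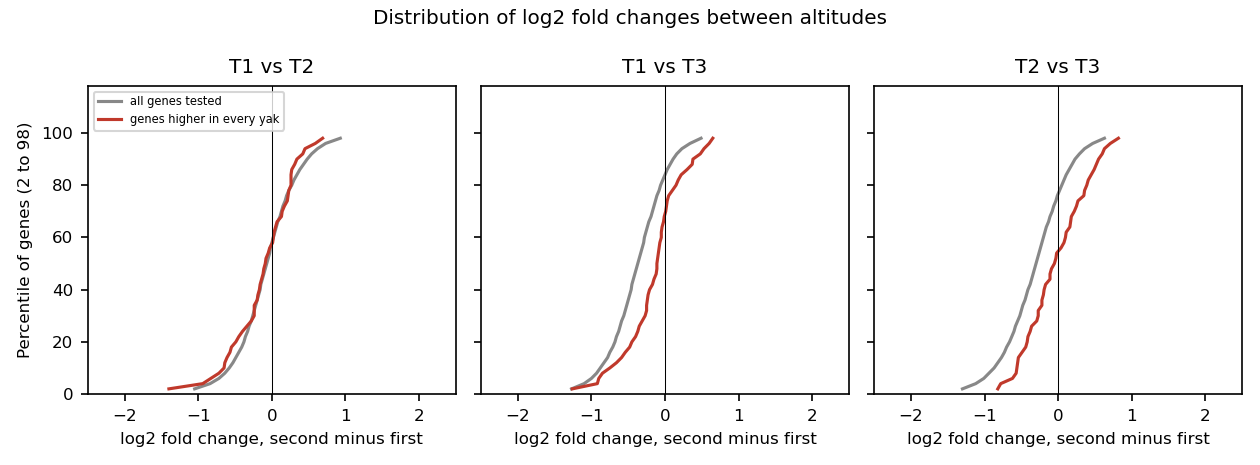
Percentiles (vertical, 2 to 98) of the log2 fold changes of log2(FPKM + 1) (horizontal, second altitude minus first) for the 54 genes (red) and for all 13636 genes tested (grey). From T1 to T2 the curves run together in the middle, with medians of -0.09 (red) and -0.07 (grey). At the ends the red curve lies to the left, with -1.40 against -1.05 at percentile 2 and 0.69 against 0.93 at percentile 98. Towards T3 the grey curve lies to the left of the red one, with medians of -0.37 and -0.11 from T1 and -0.30 and -0.05 from T2.

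On the FPKM scale, some of the 54 genes had groups that did not overlap between altitudes. From T1 to T2 this held for 2 higher and 3 lower genes, while over the annotated genes that could enter the shares were 3.42% and 10.5%. From T1 to T3 it held for 1 higher and 5 lower genes, beside 0.493% and 27.0%. From T2 to T3 it held for 1 higher and 2 lower genes, beside 0.652% and 16.8%. The part in these counts of the rule's floor under yak values was not tested. Neither was that of T3 replicates 1 and 2, whose size factors were low. The highest group mean was found in T1 for 18 genes, in T2 for 20 and in T3 for 16, and the lowest in T1 for 9, in T2 for 23 and in T3 for 22.

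The largest declines from T1 to T3 were measured for genes 102264573 and 102265117, and neither passed the test. Gene 102264573, of 958 bases, had 31.2, 11 and 26.1 FPKM in T1, 3.38, 21.7 and 41.1 FPKM in T2, and 18.9, 6.05 and 2.07 FPKM in T3, with 0.537 and 0.718 FPKM in the cattle. Its log2 fold change from T1 to T3 was -1.54 with a standard error of 0.78 and an adjusted p of 0.305 in limma. It had the widest range over the yaks of all 54 genes, at 19.9-fold, and the T1 and T3 values overlapped.

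Gene 102265117, of 1192 bases, had 10.8, 14.1 and 10.7 FPKM in T1, 3.15, 17.4 and 6.03 FPKM in T2, and 6.38, 2.65 and 4.42 FPKM in T3, with 0.237 and 1.18 FPKM in the cattle. All T3 yaks lay below all T1 yaks, and the T2 yaks overlapped with both. Its log2 fold change from T1 to T3 was -1.28 with a standard error of 0.48, an unadjusted p of 0.0206 and an adjusted p of 0.210 in limma. It was the gene counted above as lower in T3 than in T1 at an unadjusted p under 0.05.

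The largest increases from T1 to T3 were measured for genes 102268866 and 102287756. Gene 102268866, of 918 bases, had 0.729, 1.52 and 1.22 FPKM in T1, 2.30, 1.94 and 3.46 FPKM in T2, and 2.21, 3.68 and 1.72 FPKM in T3. Every T1 yak was below every yak of T2 and T3, and neither of the cattle had a read. With 3 reads in each cattle library as the limit, which is 0.0852 FPKM, its mean in yaks was at least 24.5-fold higher. The log2 fold change from T1 was 0.72 (standard error 0.31) in T2 and 0.69 (standard error 0.31) in T3, with adjusted p of 0.703 and 0.258 in limma.

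Gene 102287756, of 1222 bases, had 52.9, 11.3 and 13 FPKM in T1, 17.0, 20.4 and 32.8 FPKM in T2, and 84.7, 77.0 and 4.38 FPKM in T3, with 1.20 and 0.347 FPKM in the cattle. T3 replicates 1 and 2 were the highest of all yaks and T3 replicate 3 the lowest. Its log2 fold change from T1 to T3 was 0.65 with a standard error of 0.89 and an adjusted p of 0.712 in limma. Without T3 replicate 3 it was 1.96 with an adjusted p of 0.0440, at which setting 8.82% of all genes were called. That fit leaves in T3 only the replicates 1 and 2 that stood apart. Among the fits without library weights, the call thus turned on T3 replicate 3. With all 11 libraries kept, the gene was called when each library was weighted by its scatter (1.92, adjusted p 0.0498 in limma), as given below.

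**Figure D5:**
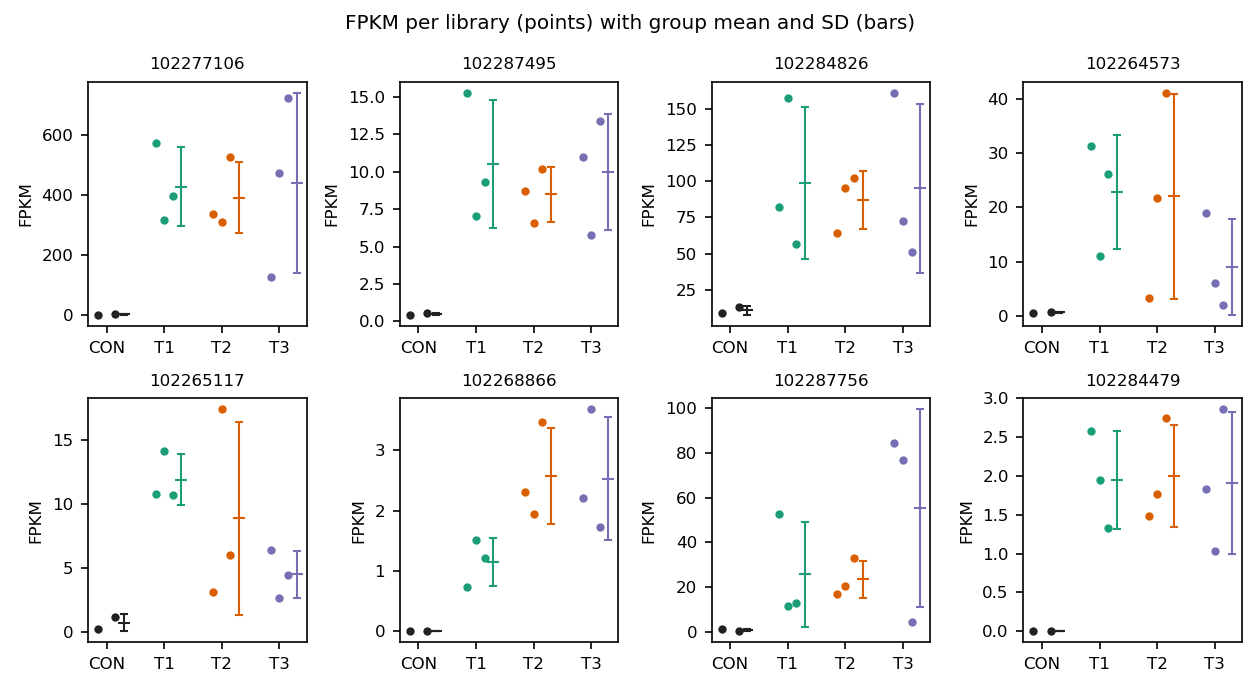
FPKM (vertical, linear scale) of 8 of the 54 genes in the cattle (CON) and the 3 yak groups (T1, T2 and T3, in order of altitude), 1 point per library, with the group mean and SD as bars beside the points. In gene 102287756 the T3 yaks split into 84.7 and 77.0 against 4.38 FPKM, while in gene 102268866 all T1 points (0.729 to 1.52 FPKM) lie below those of T2 and T3.

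A further 3 genes are named because they were called between altitudes by an unadjusted p or with each library weighted by its scatter. They were chosen after their values were seen. Gene 102287245 had 13.3, 18.7 and 30.9 FPKM in T1, 4.71, 9.98 and 3.70 FPKM in T2, and 6.50, 9.28 and 16.1 FPKM in T3, with 0.351 and 0.703 FPKM in the cattle. All T2 yaks lay below all T1 yaks. Its log2 fold change from T1 to T2 was -1.64 with a standard error of 0.41, an unadjusted p of 0.00173 and an adjusted p of 0.503 in limma.

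Gene 102272269 had 47.2, 43.2 and 40.9 FPKM in T1, 4.17, 42.4 and 19.5 FPKM in T2, and 36.6, 23.0 and 27.5 FPKM in T3, with 0.207 and 0.459 FPKM in the cattle. The value of 4.17 FPKM in T2 replicate 1 was the lowest of the yaks, T2 replicate 2 lay within the T1 range, and all T3 yaks lay below all T1 yaks. Its log2 fold change from T1 to T2 was -1.43 with a standard error of 0.56, an unadjusted p of 0.0252 and an adjusted p of 0.682 in limma.

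Weighting each library by its scatter in limma was the only alternative fit of all 11 libraries in which any of the 54 genes was called between altitudes. It called 3 of them between T1 and T3, beside 9.28% of all genes. These were 102287245 (log2 fold change -1.22, adjusted p 0.0385), 102287756 (1.92, adjusted p 0.0498) and 102271807 (-1.51, adjusted p 0.0283). Gene 102271807 had 2.47, 7.12 and 7.12 FPKM in T1, 1.43, 2.90 and 5.36 FPKM in T2, and 1.15, 1.15 and 6.50 FPKM in T3, with 0.302 and 0.148 FPKM in the cattle. Its T3 replicate 3 lay within the T1 range, and without weights its log2 fold change from T1 to T3 was -0.91 with an adjusted p of 0.370.

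The 54 genes varied somewhat more between yaks than other annotated genes. The SD of log2(FPKM + 1) over the 9 yaks had a median of 0.54 (range 0.17 to 1.33), against 0.43 over the annotated genes that could enter. The highest yak value was 1.52 to 19.9 times the lowest, with a median of 3.57. It was under 2 times the lowest in 7 genes and over 10 times in 4.

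No common variation of the 54 genes over the yaks held on every scale. Over the 9 yaks, Pearson's r of log2(FPKM + 1) between pairs of the 54 genes had a median of 0.08, and between pairs of annotated genes 0.21. After median-ratio scaling these medians were 0.23 and 0.02, so that which of the sets varied together more changed with the scale. These correlations are a description, since they rest on 9 yaks whose libraries were of unequal depth and quality. The closest pair of the 54 was 102274253 and 102272952 (r = 0.986, n = 9 yaks), and the next was 102272269 with 102265839 (r = 0.922). The most opposed pair was 102268426 and 102274253 (r = -0.872).

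The annotated gene whose profile over the 9 yaks was most like that of gene 102277106 was 102264575 (Pearson's r = 0.950, n = 9). It was not among the 54, since its FPKM was 7.94 to 76.3 in the yaks and 42.3 on average in the cattle. The following 4 genes, 102266270, 102265241, 102280289 and 102280275, had r of 0.896, 0.892, 0.879 and 0.877, and none was among the 54.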

How the data were processed

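Lung RNA-seq tables of 11 libraries were used, 2 of cattle and 3 of yaks at each of 3 altitudes. The authors filtered the reads, mapped them to the yak assembly of Bos mutus with HISAT2 and merged StringTie assemblies. They deposited gene lengths and FPKM values per library. The submitters' processing notes name TopHat2 2.1.1 and Bowtie2 2.2.8 instead. The counting tool, the use of strand and the treatment of reads shared between similar genes are not given in the sources used here. The extraction note in the labels speaks of retinas, whereas all other labels say lung.

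FPKM multiplied by gene length and a factor per library gave whole reads for 100% of values (tolerance 0.01), which is how the reads were recovered. The depth, 28138973 to 54515645 reads, and the 2 or 3 animals per group set the precision. The members and lists were chosen with earlier results of these data known.

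The rule was applied in Python 3.11.15 with numpy 2.4.6 and pandas 2.3.3, with a pseudocount of 1. All 4 groups were fitted to log2(FPKM + 1) in R 4.3.3 with limma 3.58.1, with empirical Bayes moderation and a trend, without covariates, over 13636 genes, with Benjamini-Hochberg adjustment and a fold change of at least 2. Limma on the deposited FPKM was the main test in place of the authors' DESeq2, and the recovered reads were used for voom as an alternative. Fold changes on the log2(FPKM + 1) scale understate those of low genes. Genes are named as the 2 with the largest margin, the 2 highest in yaks, and the 2 with the largest fall and rise from T1 to T3, and others are marked in the text. For likeness, Pearson's r over the 9 yaks was used. The scripts were tested on simulated data. Plots were drawn with matplotlib 3.10.9. Alternatives were other scalings, pseudocounts, filters and ratios, library weights, voom on the reads, fits of 2 groups, a block for the replicate number, and each library left out in turn. The scalings of the count for T3 replicates 1 and 2 and the alternatives for the comparisons with CON were chosen after seeing the data. Voom called 164, 94 and 161 genes for T1, T2 and T3 against CON. No other measurements of the study were used here.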

Additional observations from a re-analysis of the deposited data

Results flagged for a closer look

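The values of the 9 yaks were examined for single libraries far from the others, by Dixon's ratio of the gap to the nearest library over the whole range against its 95% critical value. In 6 of the 54 genes (11.1%) a yak passed this value, 5 times at the high end. Over the 6903 annotated genes that could enter, the share was 13.6%, with 13.1% at the high and 0.536% at the low end, so that the 54 genes lay near the background. The rule also puts a floor under every yak value, which limits low values among the 54. Chance alone passes the critical value in about 1 of 20 groups of normally distributed values. Whether this rate holds for FPKM, on which the ratio was taken without logs, was not tested. The 9 yaks also cover 3 altitudes.

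Gene 102282150 showed the largest gap, with 20.3 FPKM in T2 replicate 1 (ratio 0.803) and 2.16 to 5.75 FPKM in the other yaks. In the same library, gene 102265839 had 5.0 FPKM, the lowest of the yaks (ratio 0.607), against 15.2 to 21.8 FPKM in the others. Gene 106700841 had 135 FPKM in T3 replicate 1 (ratio 0.693), against 35.3 to 66.0 FPKM in the others. Gene 106700606 had 39.4 FPKM in T2 replicate 2 (ratio 0.554), and the others had 6.14 to 21.0 FPKM. Gene 102269264 had 19.3 FPKM in T3 replicate 3 (ratio 0.542), and the others had 6.45 to 12.3 FPKM. Gene 102280821 had 11.9 FPKM in T2 replicate 3 (ratio 0.502), and the others had 3.48 to 7.70 FPKM. In each of these genes both cattle were below every yak, at most 9.22 FPKM in gene 106700841 and at most 2.75 FPKM in the rest. The cause of these values was not tested.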

How the results depend on the processing

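The number of genes higher in every yak was 54, and it was 86 with a pseudocount of 0.1, 428 with a ratio of 1 (genes that tie with the cattle included) and 18 with a ratio of 2. It was 54 to 105 with a library left out, highest without CON replicate 1, and 99 without T3 replicates 1 and 2, where fewer libraries have to pass. The count of genes lower in T3 replicates 1 and 2 was 23 after median-ratio scaling and 30 after quantile normalization instead of 323. The counts called against CON were 33, 30 and 26 in T1, T2 and T3. With library weights they were 50, 52 and 50, where 5.78% to 13.8% of all genes were called in either direction, with a mean FPKM of at least 5, where 39 of the 54 were tested, they were 21, 15 and 14 (1.28% to 2.25% of all genes), with voom 16, 9 and 14 (0.689% to 1.20% of all genes), and at an unadjusted p 52, 53 and 52. With median-ratio scaling the counts were 20, 23 and 36 (2.27% to 3.19% of all genes). With 1 library left out the counts were 4 to 22 in T1, 1 to 22 in T2 and 1 to 37 in T3, lowest without one of the cattle (at most 0.231% of all genes) and highest in T3 without its replicate 3 (8.58%). Between altitudes, an unadjusted p gave 2 genes lower in T2 than in T1 (beside 1.86% of all genes) and 1 lower in T3 than in T1 (5.45%). Library weights gave 3 for T1 with T3 (9.28%). Leaving out a library gave 0 to 1 there, with the 1 found without T3 replicate 3 (8.82%). For T2 with T3, library weights and the fit without T3 replicate 3 called 0 of the 54, beside 2.32% and 6.46% of all genes. With 1 library left out, the median log2 fold change of the 54 genes was -0.16 to 0.02 from T1 to T2, -0.21 to 0.00 from T1 to T3 and -0.20 to 0.10 from T2 to T3. The medians were 0.35 from T1 to T3 and 0.30 from T2 to T3 after median-ratio scaling, and 0.25 in both after quantile normalization. The cause of these shifts was not tested. With the replicate number as a block, 30, 28 and 26 genes were called against CON (1.83% to 2.23% of all genes in either direction). Between altitudes this fit called 0 of the 54, beside 0% of all genes. The deviations of same-numbered libraries had correlations of -0.1 to 0.36 in 15 pairs, 3 of them over 0.1. Those of differently numbered libraries were -0.39 to 0.26 in 30 pairs, 5 of them over 0.1. Such correlations cannot show whether the numbers pair the animals. For the named genes, the log2 difference of yaks minus cattle was recomputed under the alternatives. Of 252 values, 240 moved by less than the SD of log2(FPKM + 1) over the 9 yaks. Leaving out 1 of the 9 yaks cannot move their mean by this SD, so the values from those settings could only stay within it. The 12 values that moved further came from the pseudocount of 0.1 or, in gene 102271248, from leaving out 1 of the cattle. In that gene the difference of 2.95 became 1.40 without CON replicate 1 and 4.50 without CON replicate 2. The rule fixes the sign of the difference between yaks and cattle, and the changes between altitudes of single genes are not among the 252 values.

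These results rest on 2 cattle, on gene models without names and on reads of both species counted on a yak assembly. At this depth 3 reads limit what 0 reads can show, and precision between animals is set by their number. The cattle and the yaks differ in species, altitude and place at once, which cannot be told apart.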
